A study of Mus musculus with 36 samples.

Results

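Fc receptors are the cell surface proteins that bind the constant part of antibodies, and 8 of their genes were chosen here by symbol: the IgG receptors Fcgr1, Fcgr2b, Fcgr3 and Fcgr4, the shared signaling chain Fcer1g, the IgE receptor chains Fcer1a and Ms4a2, and the neonatal receptor Fcgrt. The table of probe sets and genes paired 7 of the 8 with 1 probe set each, out of 23410 probe sets with a gene symbol and 35556 in all. Fcgrt, which carries IgG and albumin across cells, had no probe set there and was not analysed here.

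The arrays measured RNA from floating cells of male C57BL/6J mice, isolated as adipocytes from the epididymal fat pad by collagenase digestion and from the bone marrow after lysis of red cells. Wild type mice on standard chow were studied at 6, 14 and 18 months and wild type mice on a high fat diet (HFD, 60% of calories from fat) at 6 and 14 months. Leptin-deficient ob/ob mice of the same background, which stayed on chow, were studied at 6 months. Each of the 12 groups of depot, diet, age and genotype had 3 arrays, each of RNA pooled from several mice, so the p-values measure the spread between pools, and both depots came from the same animals. A wild type littermate group for the ob/ob mice was not analysed here, and the wild type chow mice of 6 months served as their control.

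Cells read antibody through these receptors in opposing directions. Fcgr1, Fcgr3 and Fcgr4 are activating receptors of macrophages, monocytes and neutrophils that depend on the γ chain Fcer1g, whose activation motif (ITAM) recruits the kinase Syk and leads to phagocytosis and oxidant production, whereas Fcgr2b carries an inhibitory motif and recruits the phosphatase Inpp5d. Fcer1a and Ms4a2, the α and β chains, join the same γ chain to form the high affinity IgE receptor of mast cells and basophils. In obese adipose tissue the cells known for IgG receptors are chiefly macrophages, which can cling to lipid-laden adipocytes during flotation.

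Fcgr2b, Fcgr4 and Fcgr3 lie next to each other among the protein-coding genes of mouse chromosome 1, Fcer1g follows 10 genes and Fcer1a 65 genes from Fcgr2b, whereas Fcgr1 is on chromosome 3 and Ms4a2 on chromosome 19. The 250 bases before the transcription start are given below for the 6 genes on which the results turn, since neighboring receptors parted with the diet at 14 months and receptors on different chromosomes rose together at 6 months. The sequences are from RefSeq (build GRCm38.p6) and run 5′ to 3′ on the strand of the gene. Capitals mark matches on either strand to 3 motifs chosen with the results of these data known. The PU box, bound by the myeloid factor PU.1, was searched as GAGGAA. The GATA motif of mast cell and basophil factors was searched as AGATAA. The interferon-γ activated site (GAS) was searched as TTCNNNGAA.
Fcgr1, chr3:96293970-96294219, minus strand: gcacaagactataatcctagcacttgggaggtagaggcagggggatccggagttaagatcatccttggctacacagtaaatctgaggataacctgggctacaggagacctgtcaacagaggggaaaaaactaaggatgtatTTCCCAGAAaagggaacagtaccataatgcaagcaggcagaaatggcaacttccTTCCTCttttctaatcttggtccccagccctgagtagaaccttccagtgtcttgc
Fcgr3, chr1:171059404-171059653, minus strand: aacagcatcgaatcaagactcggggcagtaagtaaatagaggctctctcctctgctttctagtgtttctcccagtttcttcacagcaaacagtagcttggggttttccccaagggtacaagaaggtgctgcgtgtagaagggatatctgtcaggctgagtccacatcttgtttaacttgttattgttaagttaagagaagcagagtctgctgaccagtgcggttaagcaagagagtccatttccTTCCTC
Fcgr4, chr1:171018676-171018925, plus strand: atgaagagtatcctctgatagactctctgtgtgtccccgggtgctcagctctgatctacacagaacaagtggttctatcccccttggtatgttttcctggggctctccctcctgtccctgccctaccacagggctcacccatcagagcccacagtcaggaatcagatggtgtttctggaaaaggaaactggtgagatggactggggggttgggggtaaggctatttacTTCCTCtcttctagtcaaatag
Fcgr2b, chr1:170976072-170976321, minus strand: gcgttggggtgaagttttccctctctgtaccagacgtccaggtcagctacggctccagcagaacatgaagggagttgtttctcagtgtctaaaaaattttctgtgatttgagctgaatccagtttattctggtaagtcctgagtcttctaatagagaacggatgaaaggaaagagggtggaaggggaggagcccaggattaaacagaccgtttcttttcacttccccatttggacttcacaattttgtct
Fcer1a, chr1:173227230-173227479, minus strand: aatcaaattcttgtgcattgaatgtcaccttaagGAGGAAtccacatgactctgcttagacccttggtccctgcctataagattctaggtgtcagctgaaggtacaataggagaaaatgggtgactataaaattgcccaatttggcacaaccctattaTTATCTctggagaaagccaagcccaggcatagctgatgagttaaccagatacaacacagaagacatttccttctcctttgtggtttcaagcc
Ms4a2, chr19:11623720-11623969, minus strand: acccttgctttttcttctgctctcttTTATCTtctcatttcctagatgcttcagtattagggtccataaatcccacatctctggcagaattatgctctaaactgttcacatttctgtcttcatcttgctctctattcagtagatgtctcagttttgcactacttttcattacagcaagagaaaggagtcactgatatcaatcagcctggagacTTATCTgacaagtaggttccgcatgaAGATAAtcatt

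The PU box letters began at -55 in Fcgr1, at -6 in Fcgr3, at -22 in Fcgr4 and at -216 in Fcer1a, where -1 is the base before the start. Fcgr3 has another annotated start, not shown, from which the same letters began at -15. Of 32851 mouse promoters of the same length, 23.3% held these letters. The GAS letters stood at -109 in Fcgr1 (7.02% of promoters), and the GATA letters at -92 in Fcer1a and at -224, -37 and -11 in Ms4a2 (9.99% of promoters). None of the 3 motifs was found in this window of Fcgr2b or Fcer1g. A match is a description of the letters and was not tested as a binding site.

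Values are the deposited log2 signals, and a difference counted as called where it reached 2-fold and its limma p, adjusted by Benjamini-Hochberg over the 23410 probe sets, was below 0.05. Adipocyte markers averaged 11.44 to 12.67 in the epididymal groups and 6.46 to 7.75 in the bone marrow groups, where neutrophil markers averaged 11.96 to 12.5, so that the bone marrow preparations carried RNA of cells of the neutrophil lineage. In the epididymal depot 1 chow array of 6 months (array 01) had a mean neutrophil marker level of 9.28 against 6.07 and 5.86 in the other arrays of its group. A set of 8 arrays was parted from the other 28 by 18 of 12146 probe sets without a symbol and had higher small nucleolar RNA signals (means of 7.22 to 8.56 against 5.23 to 6.98). It held every HFD array of 6 months in both depots, bone marrow chow array 01 and bone marrow ob/ob array 03, so that in the epididymal depot at 6 months the set and the HFD cannot be told apart. Values from a fit with a term for this set, which rests on the 2 mixed groups, chow and ob/ob in bone marrow, are given beside the results whose call they changed.

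**Figure D1:**
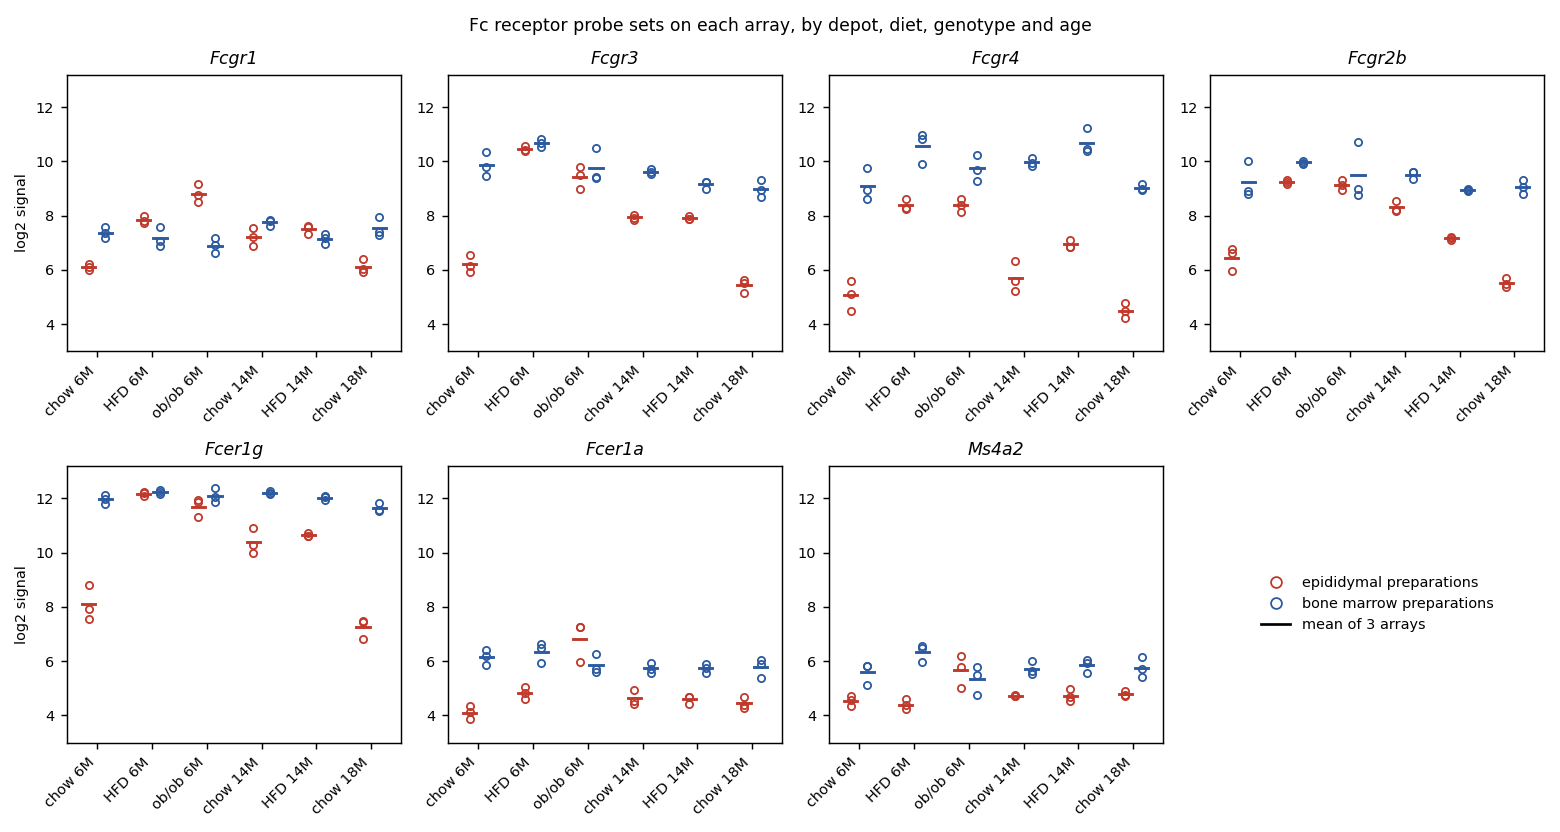
Log2 signal of the 7 measured Fc receptor genes on every array (points) in 6 conditions (chow, HFD and ob/ob at 6 months, chow and HFD at 14 months, chow at 18 months), epididymal in red and bone marrow in blue, with lines at the mean of 3 arrays. Epididymal Fcer1g ranged from 6.81 to 12.23, and bone marrow Fcer1g from 11.53 to 12.37.

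All 3 activating receptors had their lowest means in epididymal adipocytes of chow-fed mice of 6 and 18 months. Fcgr1, the high affinity IgG receptor, was highest in ob/ob epididymal adipocytes (8.81 ± 0.33, SD, n = 3), above all other groups without overlap, and read 6.11 ± 0.12 and 6.11 ± 0.25 in the 2 lowest groups, which overlapped each other. Fcgr3 was highest in bone marrow with HFD at 6 months (10.69 ± 0.15) and in the epididymal depot with the same diet and age (10.46 ± 0.10), which overlapped. All these arrays belonged to the set of 8. The bone marrow arrays of the set from other groups, chow array 01 (10.36) and ob/ob array 03 (10.51), read nearly as high. No bone marrow array outside the set read above 9.80. Fcgr4 was highest in bone marrow with HFD at 14 and 6 months (10.69 ± 0.47 and 10.56 ± 0.57, overlapping), and all 18 of its bone marrow arrays lay between 8.60 and 11.23.

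Fcgr3 and the inhibitory receptor Fcgr2b had the same 2 lowest groups, epididymal chow at 6 months (6.21 ± 0.32 for Fcgr3 and 6.45 ± 0.42 for Fcgr2b) and at 18 months (5.43 ± 0.24 and 5.52 ± 0.17), with no overlap between the 2 ages. The γ chain Fcer1g followed this order as well, at 8.10 ± 0.64 and 7.24 ± 0.38. In the bone marrow the 6 group means of Fcer1g stayed between 11.65 and 12.24.

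The IgE receptor chains read below the median of all values of the table (5.81) on many arrays, Fcer1a on 22 of 36 and Ms4a2 on 27. Probe sets differ in brightness, so this does not rank the genes. Outside the ob/ob group all 15 epididymal arrays of Fcer1a lay between 3.86 and 5.06 and those of Ms4a2 between 4.24 and 4.96.

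At 6 months every IgG receptor and the γ chain read higher with HFD than with chow in epididymal adipocytes. Every HFD array and no chow array of this comparison belonged to the set of 8. Fcgr1 measured 5.99, 6.23 and 6.10 on the chow arrays and 7.98, 7.73 and 7.82 on the HFD arrays. Fcgr3 measured 6.56, 5.94 and 6.13 with chow and 10.58, 10.42 and 10.39 with HFD. Fcgr4 measured 5.58, 5.12 and 4.50 with chow and 8.63, 8.25 and 8.27 with HFD. In all 3 the HFD arrays lay above the chow arrays without overlap, and within a group they differed by little over 1 log2 unit at most.

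The inhibitory receptor and the shared chain moved the same way. Fcgr2b measured 6.62, 6.76 and 5.97 with chow and 9.30, 9.25 and 9.18 with HFD. Fcer1g measured 8.81, 7.93 and 7.56 with chow and 12.07, 12.21 and 12.23 with HFD. The highest chow array of Fcer1g was the array 01 with the high neutrophil markers.

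The 5 genes called higher, of 7 measured, stand beside 9.41% of all probe sets called higher in this comparison (2202 probe sets), and the median difference of the 7 was 2.80 on the log2 scale against -0.11 over all probe sets. The difference was 4.26 ± 0.23 (SE) for Fcgr3, which is 19.1-fold (adjusted p = 1.58e-13, limma), and 4.07 ± 0.22 for Fcer1g, which is 16.8-fold (1.58e-13). Fcgr4 rose by 3.32 ± 0.32 (9.96-fold, 3.23e-09), Fcgr2b by 2.80 ± 0.32 (6.95-fold, 5.23e-08) and Fcgr1 by 1.74 ± 0.19 (3.33-fold, 2.40e-08). The IgE receptor chains were not called, with a difference of 0.72 for Fcer1a (adjusted p = 0.0258 but 1.65-fold, 95% interval 0.20 to 1.24) and of -0.15 for Ms4a2 (adjusted p = 0.68). Fewer or more cells of a type and less or more RNA per cell cannot be told apart in pooled preparations.

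With a term for the set of 8 arrays the differences were 3.34 for Fcgr3, 4.0 for Fcer1g, 3.32 for Fcgr4, 1.89 for Fcgr1 and 1.31 for Fcgr2b, all called, and the value of Fcgr2b was thus the one that moved by over 1 log2 unit. The term was estimated from bone marrow arrays, so it does not part the set from the HFD in this depot. Leaving out the chow array with high neutrophil markers gave 4.43 for Fcgr3, 4.43 for Fcer1g, 3.57 for Fcgr4, 2.88 for Fcgr2b and 1.68 for Fcgr1. The 5 calls held without any single array.

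**Figure D2:**
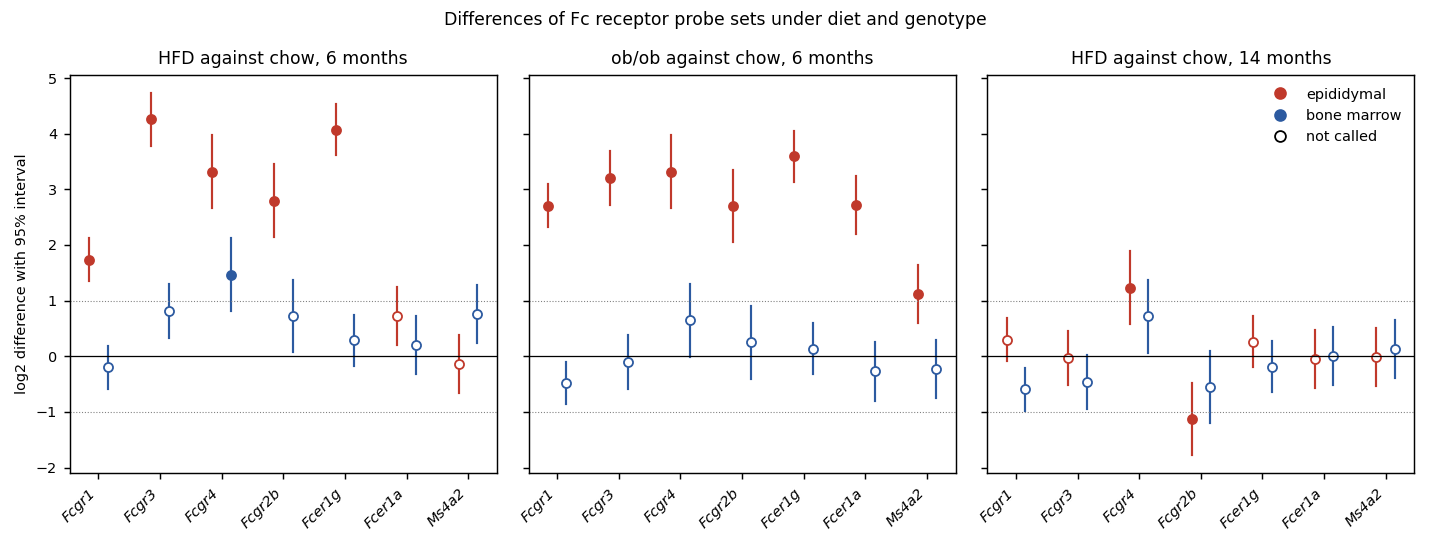
Log2 differences (points) with 95% intervals (bars) for each Fc receptor gene in HFD against chow at 6 months, ob/ob against chow at 6 months and HFD against chow at 14 months, in both depots, with open points not called and dotted lines at 2-fold. In the epididymal depot 5 genes are called with HFD and 7 in ob/ob at 6 months, while at 14 months Fcgr4 (1.23) and Fcgr2b (-1.13) are called in opposite directions.

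Genes of ITAM signaling, of phagocytosis and of inhibitory phosphatases were higher as well, and not all of them act below the Fc receptors. Of 20 genes of ITAM signaling 16 rose and none fell (median 2.18), led by Tyrobp, the other ITAM adaptor of myeloid cells (4.62), the adaptors Fyb (3.84) and Lat2 (3.63) and the kinase Syk (3.56). All 11 genes of phagocytosis and the NADPH oxidase rose (median 2.36), among them the oxidase subunits Cyba (4.16) and Cybb (3.82), the Rac activator Dock2 (3.94) and Rac2 (3.13). Of 7 inhibitory phosphatases and adaptors 4 rose and none fell (median 1.17), among them Inpp5d, the phosphatase that Fcgr2b recruits (3.05), Ptpn6 (1.84), Dok2 (1.64) and Dok3 (1.17).

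Markers of macrophages moved with these genes, with 12 of 14 higher and none lower (median 2.78), among them C1qb (4.58), Adgre1 (4.34), Cd68 (4.26) and C1qc (3.64). The summed macrophage signal, on the log2 scale, was 12.27 to 12.78 on the chow arrays and 15.41 to 15.44 on the HFD arrays. Of 12 neutrophil markers 5 were lower with HFD and none higher (median -1.25), beside 5.21% of probe sets called lower, and without chow array 01 1 was lower (Prtn3, -1.84) and 1 higher (Csf3r, 1.14), with a median of -0.12. The part of either cell type in the Fc receptor differences was not tested.

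In ob/ob epididymal adipocytes all 7 genes were called higher than in chow-fed mice of the same age, beside 5.62% of all probe sets called higher. Fcer1g rose by 3.59 ± 0.22 (12.1-fold, adjusted p = 1.89e-12), Fcgr4 by 3.32 ± 0.32 (9.97-fold, 4.46e-09), Fcgr3 by 3.21 ± 0.23 (9.24-fold, 3.29e-11), Fcgr1 by 2.71 ± 0.19 (6.53-fold, 1.24e-11) and Fcgr2b by 2.69 ± 0.32 (6.47-fold, 1.39e-07). The ob/ob arrays of Fcgr1 read 8.51, 8.76 and 9.17, those of Fcgr4 8.39, 8.13 and 8.62 and those of Fcgr2b 8.94, 9.33 and 9.14. None overlapped the chow arrays.

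The IgE receptor chains changed in this genotype. Fcer1a measured 4.34, 3.86 and 4.13 on the chow arrays and 5.98, 7.25 and 7.26 on the ob/ob arrays, a rise of 2.72 ± 0.25 (6.58-fold, adjusted p = 2.64e-09). Ms4a2 measured 4.71, 4.57 and 4.36 with chow and 5.02, 5.80 and 6.20 in ob/ob, a rise of 1.12 ± 0.25 (2.18-fold, 0.00109). Array 01 was the lowest ob/ob array for both chains, and without ob/ob array 03 the difference of Ms4a2 was 0.86 (adjusted p = 0.0175), under 2-fold.

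Mast cell markers differed among the same arrays. Of 8 mast cell markers 7 were higher in ob/ob than with chow, led by the proteases Cpa3 (4.39), Mcpt4 (4.05) and Tpsb2 (2.98) and by Mrgprb2, a receptor of connective tissue mast cells (2.0), and their mean was 6.73 on ob/ob array 01, 7.85 on array 02 and 8.19 on array 03 against 5.14 to 5.42 with chow. The summed mast cell signal on the log2 scale was 8.43 to 9.03 with chow, 10.38 to 10.51 with HFD and 10.43 to 12.14 in ob/ob. Of 4 basophil markers none was called. The part of mast cells in the rise of Fcer1a and Ms4a2 was not tested.

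Mast cell markers did not move alike with HFD at 6 months. Cpa3 read 8.93 with HFD against 4.91 with chow, Mcpt4 8.55 against 5.46 and Tpsb2 7.67 against 6.00. Smaller differences were seen for Cma1 (5.0 against 4.41), Tpsab1 (5.06 against 4.61), Hdc (7.25 against 6.75) and Kit (6.72 against 6.41). Mrgprb2 read 3.47 against 3.41. Fcer1a read 4.83 against 4.11, without overlap but under 2-fold (adjusted p = 0.0258, limma), and Ms4a2 4.4 against 4.55, so neither was called. In ob/ob Mrgprb2 read 5.41 (4.39 to 6.16), above its means of 3.30 to 3.67 in the other 11 groups.

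**Figure D3:**
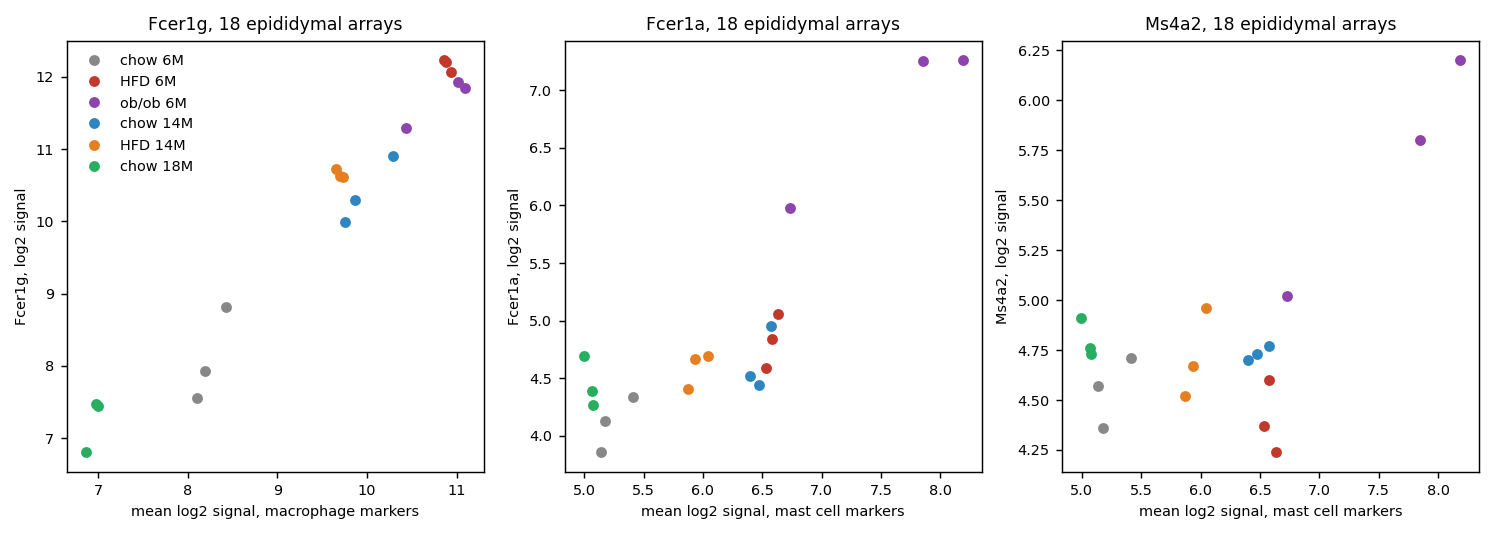
Log2 signals on the 18 epididymal arrays, with Fcer1g plotted against the mean of the macrophage markers and Fcer1a and Ms4a2 against the mean of the mast cell markers, colored by condition. Fcer1g follows the macrophage markers across all conditions (r = 0.98), while Fcer1a lies between 3.86 and 5.06 on every array outside ob/ob and between 5.98 and 7.26 within it.

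Set against HFD at the same age, ob/ob epididymal adipocytes had more Fcer1a (2.0 ± 0.25, adjusted p = 1.15e-06) and Ms4a2 (1.27 ± 0.25, 0.000318), 2 of 7 genes beside 4.08% of probe sets called higher, and less Fcgr3 (-1.05 ± 0.23, 0.000942), 1 of 7 beside 6.03% called lower. Fcgr1 differed by 0.97 (adjusted p = 0.000213, 1.96-fold), just under the fold required. Fcgr4 differed by 0.00 with a 95% interval of -0.66 to 0.66, so a difference within that range is not excluded. With the term for the set of 8 arrays, to which all 3 HFD arrays belong, Fcgr3 differed by -0.13 (adjusted p = 0.814) and Fcgr2b by 1.38 (0.000191), while Fcer1a (2.50) and Ms4a2 (1.79) were still called. The term was estimated from bone marrow arrays and does not part the set from the HFD in this depot. Fcgr3 also fell under 2-fold without HFD array 01 (-0.99) or ob/ob array 01 (-0.83). Mast cell markers were higher in 4 of 8 (Mrgprb2 1.94, Cma1 1.17 and Kit 1.07 among them) and ITAM signaling genes lower in 5 of 20. This comparison shares its ob/ob arrays with the comparison against chow.

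At 14 months the IgG receptors parted between HFD and chow instead of all reading higher with HFD. Fcgr4 measured 6.33, 5.58 and 5.23 on the epididymal chow arrays and 6.85, 6.85 and 7.12 on the HFD arrays. Fcgr2b measured 8.53, 8.21 and 8.18 with chow and 7.12, 7.19 and 7.23 with HFD. The activating receptor was higher and the inhibitory receptor lower with HFD, each without overlap.

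Fcgr4 was higher by 1.23 ± 0.32 (2.34-fold, adjusted p = 0.00911), 1 of 7 beside 1.13% of probe sets called higher, and Fcgr2b lower by 1.13 on the log2 scale (-1.13 ± 0.32, 2.19-fold, adjusted p = 0.0155), 1 of 7 beside 2.44% called lower. The other differences were 0.30 for Fcgr1 (adjusted p = 0.37), 0.26 for Fcer1g (0.549), -0.04 for Fcgr3 (0.954), -0.05 for Fcer1a and -0.02 for Ms4a2. The call of Fcgr2b was lost without chow array 01 (-1.02, adjusted p = 0.0733), without HFD array 01 (-1.10, 0.0548) and with arrays centred on their medians (-0.98), and that of Fcgr4 without chow array 03 (0.99, 0.0717).

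The difference of both genes within an array removes any scale factor that an array shares between them. Its level sets one probe set against another and is not interpreted, but its change between groups is. Fcgr4 minus Fcgr2b was -2.20, -2.63 and -2.95 on the chow arrays and -0.26, -0.34 and -0.10 on the HFD arrays. The means were -2.59 ± 0.37 and -0.23 ± 0.12 (SD, n = 3), a change of 2.36 with no overlap. This change restates the calls of both genes, which were chosen for it, and carries no test.

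The chow group of 14 months stood lowest among the 6 epididymal groups in this difference. With chow its mean was -1.38 at 6 months, -2.59 at 14 months and -1.02 at 18 months, and the arrays of 14 months overlapped neither of the others. With HFD it was -0.86 at 6 months and -0.23 at 14 months, and in ob/ob -0.76. The change with HFD at 6 months was 0.52 without overlap and that in ob/ob 0.62 with overlap, so the change of 2.36 at 14 months held the age shift of the chow group (-1.21) beside that of the HFD group (0.63). The age shift with chow mainly followed Fcgr2b, which differed by 1.86, while Fcgr4 differed by 0.65 and was not called. Fcgr4 read below the median of all values (5.81) on 8 arrays, all epididymal with chow, so its changes from these groups rest on low signals.

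In bone marrow at 14 months the difference was 0.47 ± 0.19 with chow and 1.74 ± 0.44 with HFD (SD, n = 3), a change of 1.27 without overlap, and at 6 months the change was 0.75 with overlap. Against Fcgr2b in epididymal adipocytes, Fcgr1 shifted by -1.06 with HFD at 6 months and by 1.43 at 14 months, and Fcgr3 by 1.46 and 1.10, all without overlap.

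**Figure D4:**
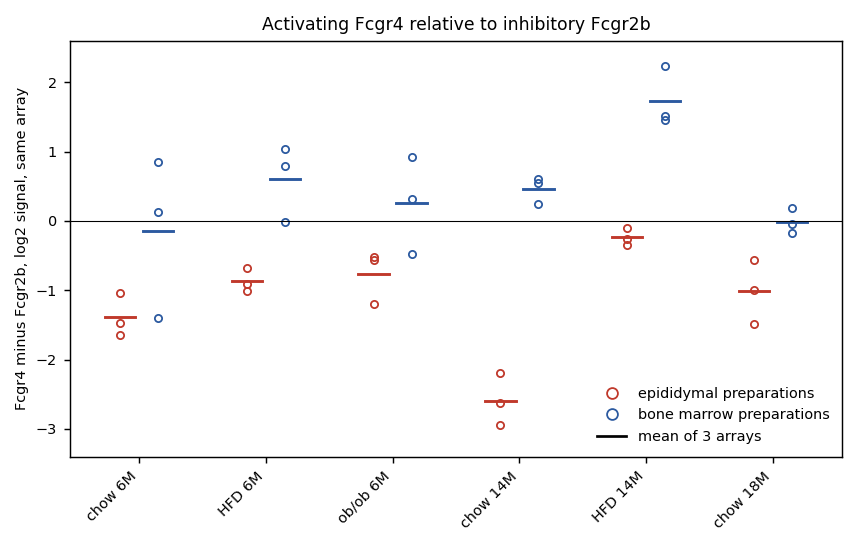
Fcgr4 minus Fcgr2b on the same array, in log2 units, for the 3 arrays of each group in both depots, with lines at the group means. The epididymal HFD arrays of 14 months lie between -0.34 and -0.10 and the chow arrays of that age between -2.95 and -2.20, and only changes between groups are to be read.

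Few genes of the signaling and phagocytosis lists were called with HFD at 14 months. Of the ITAM signaling genes 1 of 20 was higher, the PI3 kinase adaptor Pik3ap1 (1.22), of the phagocytosis genes 1 of 11 was lower, the actin-binding Coro1a (-1.07), and of the inhibitory phosphatases and adaptors 0 of 7 was called. Of 14 macrophage markers 1 was called, the mannose receptor Mrc1, at 8.94 with HFD and 10.25 with chow, and the mean of the markers was 9.65 to 9.74 on the HFD arrays and 9.75 to 10.29 on the chow arrays. Fcrls, an Fc receptor-like gene of mouse macrophages and microglia, read 5.46 with HFD and 7.91 with chow (-2.45, adjusted p = 1.94e-10), and it was the 1 gene called among 11 other antibody receptors. B cells, which use Fcgr2b as their sole IgG receptor, had 4 of 6 markers lower with HFD, and endothelial cells, some of which carry Fcgr2b, had 3 of 6 lower. Their part in the change of Fcgr2b was not tested.

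Several of the genes read higher at 14 than at 6 months in epididymal adipocytes from chow-fed mice. Of the 7 genes 4 were higher, beside 3.29% of probe sets: Fcer1g by 2.29 ± 0.22 (adjusted p = 1.80e-08), Fcgr2b by 1.86 ± 0.32 (9.38e-05), Fcgr3 by 1.73 ± 0.23 (3.90e-06) and Fcgr1 by 1.11 ± 0.19 (8.87e-05), the last under 2-fold without chow array 01 of 14 months (0.95). Fcgr4 differed by 0.65 (adjusted p = 0.201), with overlapping arrays. ITAM signaling genes were higher in 9 of 20, phagocytosis genes in 8 of 11 and mast cell markers in 4 of 8. Macrophage markers were higher in 12 and lower in 1 of 14, beside 290 of 23410 probe sets called lower.

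At 18 months the chow-fed mice had low values again. Fcer1g measured 10.90, 10.29 and 9.99 at 14 months and 7.44, 6.81 and 7.48 at 18 months. Fcgr2b measured 5.49, 5.36 and 5.70 and Fcgr3 5.16, 5.50 and 5.62 at 18 months, all below every array of 14 months. Of the 7 genes 5 were lower than at 14 months, beside 4.85% of probe sets: Fcer1g by -3.15 (adjusted p = 1.82e-12), Fcgr2b by -2.79 (1.27e-08), Fcgr3 by -2.51 (5.03e-10), Fcgr4 by -1.21 (0.00308) and Fcgr1 by -1.10 (6.57e-05).

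Fcgr1 and Fcgr4 were under 2-fold in this comparison when the arrays were quantile-normalized again (-0.88 and -0.99) or centred (-0.84 and -0.95) and without chow array 01 of 14 months. Macrophage markers were lower in 13 of 14 and their summed log2 signal was 11.11 to 11.23 at 18 months against 14.24 to 14.77 at 14 months. Mast cell markers were lower in 6 of 8 and neutrophil markers higher in 6 of 12, beside 312 of 23410 probe sets called higher. The part of these cells was not tested. Against 6 months, 0 of 7 genes was called (0.829% of probe sets higher, 1.53% lower), with differences of -0.93 for Fcgr2b (adjusted p = 0.0351), -0.86 for Fcer1g (0.00865) and -0.78 for Fcgr3 (0.0204), each under 2-fold.

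With HFD the order of the ages was turned. From 6 to 14 months on the diet 4 of 7 genes fell, beside 7.22% of probe sets called lower: Fcgr3 by -2.56 (adjusted p = 3.34e-09), Fcgr2b by -2.07 (9.22e-06), Fcer1g by -1.52 (5.76e-06) and Fcgr4 by -1.44 (0.000772), while Fcgr1 differed by -0.33 (0.197). With the term for the set of 8 arrays Fcgr2b differed by -0.58 (adjusted p = 0.0883), and Fcgr3 (-1.65), Fcer1g (-1.45) and Fcgr4 (-1.44) were still called. Every epididymal HFD array of 6 months and none of 14 months belonged to the set. The set and the age on the diet thus cannot be told apart in this depot. ITAM signaling genes were lower in 15 of 20, phagocytosis genes in 9 of 11 and macrophage markers in 9 of 14.

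The test of the difference itself, the diet effect at 14 months minus that at 6 months, called all 4 IgG receptors and Fcer1g lower (5 of 7, beside 10.3% of probe sets), and all 5 were also called with the term for the set. Among epididymal arrays the set held those of HFD at 6 months and no others. The term was estimated from bone marrow arrays, so it does not part the set from the diet and age here. These contrasts share arrays with the single comparisons.

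In the bone marrow 1 receptor was called with HFD at 6 months. Fcgr4 measured 8.60, 9.76 and 8.93 with chow and 10.98, 9.91 and 10.81 with HFD on arrays that did not overlap but came close. The difference was 1.47 ± 0.32 (2.77-fold, adjusted p = 0.00925), 1 of 7 genes beside 0.696% of probe sets called higher. It was not called without chow array 03 (1.38, adjusted p = 0.0948) or in a fit of these 6 arrays alone (adjusted p = 0.272), and it was called with the term for the set (1.47, 0.0488).

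Fcgr3 (0.81, adjusted p = 0.0439, 1.75-fold), Ms4a2 (0.75, 0.0862) and Fcgr2b (0.72, 0.202) were not called. Leaving out chow array 01, the chow array that belonged to the set, gave 3 calls, with Fcgr4 at 1.22, Fcgr2b at 1.10 and Fcgr3 at 1.05, although these values set 2 chow arrays outside the set against 3 HFD arrays inside it. At 14 months 0 of 7 genes was called (0.162% of probe sets higher, 0.581% lower), with 0.72 for Fcgr4 (adjusted p = 0.296) and -0.60 for Fcgr1 (0.0879). ITAM signaling genes were called in 1 of 20 at 6 months, Lat, the adaptor of T cells and mast cells (-1.48), and in 0 at 14 months. Lat stands beside 150 of 23410 probe sets called lower at 6 months.

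The ob/ob bone marrow had 0 of 7 genes called against chow (0.0513% of probe sets higher, 0.0982% lower). Against HFD also 0 of 7 was called (0.402% higher, 0.688% lower), with -0.99 for Ms4a2 (adjusted p = 0.0236, 1.98-fold) and -0.91 for Fcgr3 (0.0234, 1.88-fold) under the fold required. Array 03 of ob/ob, which belonged to the set of 8, had the highest Fcgr2b (10.70 against 8.98 and 8.77) and Fcgr3 (10.51 against 9.37 and 9.44) of its group.

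Age in the bone marrow with chow gave 0 of 7 calls between 6 and 14 months (0.974% of probe sets higher, 0.205% lower), 6 and 18 months (0.325% and 0.666%) and 14 and 18 months (0.47% and 1.34%). With HFD, Fcgr3 (-1.54, adjusted p = 5.17e-05) and Fcgr2b (-1.0, 0.0226) were lower at 14 than at 6 months, 2 of 7 beside 2.49% called lower. Neither was called with the term for the set, where Fcgr3 differed by -0.62 (adjusted p = 0.145) and Fcgr2b by 0.48 in the opposite direction (0.288). Every HFD array of 6 months and none of 14 months belonged to the set. Fcgr2b was also under 2-fold with quantile normalization (-0.99) and centring (-0.996), and its adjusted p was above 0.05 without HFD array 02 of 6 months (0.0505), HFD array 03 of 6 months (0.068) or any single HFD array of 14 months (0.055 to 0.0606).

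Between the depots, every gene was lower in epididymal than in bone marrow preparations of chow-fed mice at 6 months (7 of 7, beside 11.2% of probe sets called lower). The differences were -4.03 for Fcgr4, -3.86 for Fcer1g, -3.67 for Fcgr3, -2.79 for Fcgr2b, -2.04 for Fcer1a, -1.27 for Fcgr1 and -1.04 for Ms4a2. The call of Ms4a2, and with it the 7 of 7, was lost just under 2-fold with centred arrays (-0.995), with the term for the set of 8 arrays (-0.87), without bone marrow chow array 01 (-0.92) or 03 (-0.93) and without epididymal chow array 03 (-0.95). Fcgr4 was lower in epididymal adipocytes in all 6 conditions, by -1.36 in ob/ob to -4.53 with chow at 18 months. The number of genes lower was 3 with HFD at 6 months (7.6% of probe sets), 5 with chow at 14 months (9.81%) and 6 each with HFD at 14 months (10.8%) and chow at 18 months (10.8%).

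Fcgr1 crossed between the depots. In ob/ob it was higher in epididymal adipocytes by 1.92 ± 0.19 (adjusted p = 2.30e-09), 1 of 7 beside 10.8% called higher, and Fcgr4 was the 1 gene lower (-1.36, adjusted p = 0.000911), beside 7.53%. With HFD at 6 months Fcgr1 read 0.66 higher in the epididymal depot (adjusted p = 0.00513, under 2-fold), and Fcer1g (-0.07) and Fcgr3 (-0.22) lay close to their bone marrow levels. Fcer1a in ob/ob read 0.96 higher in the epididymal depot (adjusted p = 0.00296, 1.94-fold), the one condition where it was not lower there. With the term for the set it was called (1.12, adjusted p = 0.000549).

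The tests of these differences between depots called 5 of 7 genes for the HFD at 6 months, the 4 IgG receptors and Fcer1g, with a larger diet effect in epididymal adipocytes (7.49% of probe sets in that direction). With the term for the set Ms4a2 was also called, in the other direction (-1.07, adjusted p = 0.0255). For the HFD at 14 months they called 0 (1.77% higher, 2.25% lower). The diet effect in bone marrow differed between the ages for 1 of 7 genes, Fcgr3 (-1.27, adjusted p = 0.0243, beside 1.74% of probe sets called lower), which was not called with the term for the set (-0.66, 0.176). For ob/ob they called all 7 with a larger effect in epididymal adipocytes (6.28%).

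Across the 18 epididymal arrays the IgG receptors and Fcer1g varied together, with Pearson r of 0.86 to 0.97 between pairs of 0.89 to 0.98 with the mean of the macrophage markers and of 0.81 to 0.93 with that of the mast cell markers, where Fcgr1 had 0.93 with the mast cell and 0.89 with the macrophage markers. These values describe arrays that share 6 group means and carry no test. Fcer1a and Ms4a2 had r = 0.86 with each other, and of 0.86 and 0.65 with the mast cell markers. With the IgG receptors and Fcer1g, Fcer1a had r of 0.56 to 0.82 (0.82 with Fcgr1) and Ms4a2 of 0.19 to 0.55. In the bone marrow the order was another: Fcgr1 had r = 0.85 with the macrophage markers and Fcgr3 r = 0.82 with the neutrophil markers, while Fcgr1 and Fcgr3 had r = -0.21. These values also hold the difference between the set of 8 arrays and the others. Bone marrow Fcgr3 read 10.36 or more on every array of the set and 9.80 or less outside it.

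The probe sets whose pattern over all 36 arrays was most like each gene, by Pearson r (Spearman ρ in brackets), were Lcp1 for Fcer1g (0.99, 0.9), Tyrobp for Fcgr3 (0.989, 0.966), Pld4 for Fcgr2b (0.97, 0.89), Gcnt1 for Fcgr4 (0.96, 0.919), Tlr1 for Fcgr1 (0.896, 0.805), Hps3 for Ms4a2 (0.884, 0.905) and Skap2 for Fcer1a (0.839, 0.792). These values share the difference between depots. Within the 18 epididymal arrays they were Irf5 for Fcgr3 (0.996, 0.988), Ifi30 for Fcer1g (0.994, 0.981), Wfdc17 for Fcgr2b (0.988, 0.967), Lat2 for Fcgr4 (0.986, 0.95), Ttc39b for Fcgr1 (0.966, 0.944), Mrgprb2 for Fcer1a (0.937, 0.517) and Slc35b3 for Ms4a2 (0.916, 0.839). For Fcer1a and Mrgprb2 the rank correlation was far below r, and both stood high on the ob/ob arrays. Fcgr2b, Fcgr3 and Fcgr4 share sequence, and whether their probes bind 1 transcript each was not examined.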

How the data were processed

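RNA of 36 preparations was hybridized to Affymetrix mouse gene arrays. The deposited table holds log2 values; the authors' methods describe gcRMA, quantile normalization and log2 transformation, and the processing notes name Partek, GCRMA and RMA. Which arrays were normalized together is not given in the sources used here. Probe sets were named from GEO's platform annotation: 12146 had no symbol and 1621 several. A text on the diet was not used. Groups came from the labels. limma 3.58.1 (R 4.3.3) fitted group means to the deposited log2 values of 30 arrays, or of all 36 for comparisons with 18 months, with moderated variances, and the model was tested on simulated data. Arrays per group (3) limit the precision. The text names all members, up to 4 genes of each list with the largest differences among those called without overlap of arrays, and the gene most correlated with each member. The members and lists were chosen with earlier results of these data known. Alternatives covered the arrays fitted, normalization, centring, filters, the call rule, the variance, a replicate block, the set of 8 arrays and each array left out; the count of neutrophil markers without 1 array was added after seeing the data.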

Additional observations from a re-analysis of the deposited data

Results flagged for a closer look

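Several Fc receptor effects differed between ages or depots by the test of the difference itself (limma, adjusted over 23410 probe sets). In epididymal adipocytes the HFD effect at 14 months minus that at 6 months was -4.29 for Fcgr3 (adjusted p = 2.87e-10), -3.93 for Fcgr2b (1.33e-07), -3.81 for Fcer1g (8.96e-10), -2.09 for Fcgr4 (0.000733) and -1.44 for Fcgr1 (0.000122). At both ages the HFD effect on Fcgr4 was above 0, and that on Fcgr2b was below 0 at 14 months.

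In bone marrow the same difference was -1.27 for Fcgr3 (adjusted p = 0.0243), and with the term for the set of 8 arrays it was -0.66 (0.176). It was also not called without chow array 03 (-1.07, 0.106) or HFD array 03 (-1.19, 0.064) of 6 months or without chow array 02 (-1.22, 0.0629) or HFD array 03 (-1.18, 0.0701) of 14 months.

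At 6 months the HFD effect in epididymal adipocytes exceeded that in bone marrow by 3.79 for Fcer1g (adjusted p = 1.98e-09), 3.45 for Fcgr3 (1.66e-08), 2.08 for Fcgr2b (0.00112), 1.93 for Fcgr1 (4.35e-06) and 1.85 for Fcgr4 (0.00375).

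The ob/ob effect in epididymal adipocytes exceeded that in bone marrow by 3.46 for Fcer1g (adjusted p = 7.32e-09), 3.31 for Fcgr3 (3.18e-08), 3.19 for Fcgr1 (1.57e-09), 2.99 for Fcer1a (5.23e-07), 2.67 for Fcgr4 (6.68e-05), 2.45 for Fcgr2b (0.000176) and 1.36 for Ms4a2 (0.00713, and 0.0758 in a fit of its own 12 arrays). The ob/ob genotype and the HFD were compared with the same chow arrays.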

How the results depend on the processing

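Of 80 calls of single genes, 78 held with only the arrays compared, 76 with quantile normalization, 75 with centred arrays, 74 with the term for the set of 8 arrays and 80 each with all probe sets tested or no moderation. Reversed was Fcgr2b at 14 against 6 months with HFD in bone marrow (-1.0, with the set term 0.48). Counts of genes called moved as follows. HFD at 6 months in bone marrow gave 1 call, 0 with only the arrays compared, 2 with no minimum fold and 3 without the set's arrays in mixed groups. HFD at 14 months in epididymal adipocytes gave 2, and 1 with centring. The 14 against 6 months comparison with HFD in bone marrow gave 2, 1 each with quantile normalization and centring and 0 with the set term. The 18 against 14 months comparison in epididymal adipocytes gave 5, and 3 each with quantile normalization and centring. Ob/ob against HFD gave 3 in epididymal adipocytes, 1 among probe sets above the median, and 0 in bone marrow, 2 with no minimum fold and 4 without the set's arrays. Epididymal against bone marrow with HFD at 6 months gave 3, 1 above the median. Diet by depot at 14 months gave 0, and 1 each with centring and no minimum fold. Diet by age in bone marrow gave 1, 0 with the set term and 2 without the set's arrays. With no minimum fold, 18 against 6 months gave 3 in epididymal adipocytes and 1 in bone marrow and 18 against 14 months 1 in bone marrow, in place of 0. The causes were not tested.

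Leaving out 1 array at a time, no gene reversed and 22 of 588 values lost their call. The counts ranged as 5 to 5 for HFD in epididymal adipocytes at 6 months, 1 to 2 at 14 months, 0 to 3 in bone marrow at 6 months (0 without chow array 03, 3 without chow array 01) and 0 to 0 at 14 months. For ob/ob they were 6 to 7 against chow and 3 to 3 against HFD in epididymal adipocytes, and 0 to 0 and 0 to 4 in bone marrow (4 without ob/ob array 03). For 14 against 6 months they were 3 to 4 with chow and 4 to 4 with HFD in epididymal adipocytes, and 0 to 1 and 1 to 2 in bone marrow. For 18 months they were 0 to 2 (against 6) and 3 to 5 (against 14, 3 without chow array 01 of 14 months) in epididymal adipocytes, and 0 to 1 and 0 to 0 in bone marrow. Between depots they were 6 to 7 (chow), 3 to 3 (HFD) and 2 to 3 (ob/ob) at 6 months, 5 to 6 (chow) and 6 to 6 (HFD) at 14 months and 6 to 7 at 18 months. For diet by age they were 5 to 5 in epididymal adipocytes and 0 to 2 in bone marrow, for diet by depot 5 to 6 at 6 months and 0 to 1 at 14 months, and for genotype by depot 7 to 7. Centring moved the median of all genes from 0.027 to 0.181 for HFD at 14 months in epididymal adipocytes, from -0.012 to 0.252 for 18 against 14 months there and from 0.107 to 0.248 for diet by age there.

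In 0 of 22 pairs of groups did every pair of arrays with the same replicate number in the titles correlate above 0.1. Groups that differed in diet, genotype or age held different mice. Only the pairs of epididymal with bone marrow (r -0.157 to 0.184) therefore bear on pairing. Both depots came from the same animals, and low correlations between different tissues cannot show that their pools were unpaired. Whether the replicate numbers pair the depots was thus not settled, and the main fit compared them as unpaired. With a replicate block all 80 calls of single genes held.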

Other observations

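Fcrl5, an Fc receptor-like protein of B cells, read higher with HFD than with chow in bone marrow at both ages. It read 5.38 (5.36 to 5.40) with chow and 7.57 (6.87 to 8.93) with HFD at 6 months, a difference of 2.19 ± 0.37 (SE, adjusted p = 0.00179, limma), and 5.96 (5.67 to 6.16) with chow and 7.83 (7.24 to 8.89) with HFD at 14 months, a difference of 1.86 ± 0.37 (0.00466). The ob/ob bone marrow read 5.58, and the arrays of chow and HFD did not overlap at either age. Fcrl5 is 1 of the 11 other antibody receptors, and 0.696% of all probe sets were called higher at 6 months and 0.162% at 14 months. Every HFD array of 6 months belonged to the set of 8. With HFD the SD was 1.2 at 6 months and 0.92 at 14 months, against 0.023 and 0.26 with chow.

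Ptx3, a soluble pentraxin that binds Fcγ receptors, was high in epididymal adipocytes of chow-fed mice at 6 months (11.39 ± 0.12, SD, n = 3) and low at 14 months (5.35 ± 0.12), a difference of -6.04 ± 0.53 or 65.6-fold (adjusted p = 2.94e-09, limma). It read 9.40 ± 0.14 at 18 months, 8.22 ± 0.53 with HFD at 6 months, 6.4 ± 0.24 with HFD at 14 months and 8.54 ± 2.0 in ob/ob. Alb, which encodes albumin, cargo of the neonatal receptor, read 5.39 at 6 months, 5.83 ± 0.41 at 14 months and 9.17 ± 0.07 at 18 months in epididymal adipocytes with chow (18 against 14 months 3.34, adjusted p = 2.23e-14).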
